A study of Homo sapiens with 6 samples.

Results

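The transcripts of 53 genes of the cytosolic chaperone system, the heat shock response and the aggresome pathway were followed in SKOV3 cells, an established human ovarian cancer line, in 2 states. The genes were taken by name from a table of 58735 entries. They comprised 2 heat shock factors, 10 HSP70 and HSP110 genes, 5 genes of HSP90 and its cochaperones, 4 genes named as small heat shock proteins, 8 DNAJ genes, 6 BAG genes, the 8 subunits of the CCT chaperonin, 5 mitochondrial chaperones and a group of 5 with 3 ubiquilins, STUB1 and HDAC6. Because 2 entries carry the name HSPA14, there were 54 entries, of which 53 were abundant enough to be tested and 1, CRYAB, was not.

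The libraries labelled stem cells were floating spheres (FS), grown in ultra-low-attachment plates in DMEM/F12 with B27 serum replacement and no serum. The libraries labelled adherent cells were sphere-differentiated cells (SDC), obtained when spheres were put back into DMEM with FBS and settled on plastic. There were 3 libraries a state, called here FS1 to FS3 and SDC1 to SDC3, and neither state carried a transgene or a drug. The methods' recipe for sphere formation assays also holds EGF, bFGF and insulin, and it is not stated whether the medium of these libraries did. All cells were of 1 line, and attachment, serum, basal medium and any such factors differed together, so that their parts in a difference cannot be told apart. The labels do not say whether the libraries of a state came from separate cultures, and p-values then measure only the spread between these libraries. Values are FPKM, fragments per kilobase of exon scaled by a factor for each library, so levels are comparable between genes. The fragments behind them numbered 14725462 to 16376331 per library.

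Chaperones bind unfolded stretches of protein and release them in cycles driven by ATP. HSP70 proteins are loaded by DNAJ proteins and emptied by nucleotide exchange factors of the BAG and HSP110 families, HSP90 matures kinases and receptors with the help of cochaperones such as STIP1 and AHSA1, and the ring-shaped CCT complex folds actin and tubulin. When misfolded proteins accumulate, HSF1 binds heat shock elements and switches on the inducible genes. Proteins that cannot be refolded are tagged with ubiquitin by ligases such as STUB1, handed to the proteasome by ubiquilins, or carried along microtubules by HDAC6 into the aggresome, a deposit near the centrosome in which SQSTM1 (P62) gathers ubiquitylated cargo. The study stained HDAC6, P62 and HSP70 in cells that overexpressed a tagged protein, not in the spheres or differentiated cells measured here.

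A heat shock element is a row of alternating GAA and TTC units, each separated by 2 bases. Promoters of 300 bases, 250 before and 50 after a RefSeq transcript start on GRCh38.p14, were available for 44 of the 53 genes. STUB1, CCT6A, FKBP4, HSF1, UBQLN4, CRYAB, HSPB11, BAG4 and HSPA14 had no entry. A complete row of 3 units, GAANNTTCNNGAA or TTCNNGAANNTTC with N for any base, which covers both strands, was found in 7 of the 44 genes (15.9%) and in 166 of all 27305 genes with a promoter (0.608%). The 7 genes were DNAJA1, DNAJB6, HSP90AA1, HSP90AB1, HSPA6, HSPA8 and HSPD1. Their elements are shown because HSPA6, HSP90AA1 and HSPD1 are among the genes that varied most between libraries. Positions count from the transcript start, and capitals mark the GAA and TTC units of the elements. Only 1 stretch is shown per gene. HSPA8 has 2 complete elements, of which 1 is shown, and HSPA6 and DNAJA1 have further pairs of units outside the stretch shown.

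HSPA6, chr1:161524454-161524490, plus strand, bases -86 to -50: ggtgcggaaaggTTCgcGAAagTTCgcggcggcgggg
HSPA8, chr11:123062167-123062203, minus strand, bases -67 to -31: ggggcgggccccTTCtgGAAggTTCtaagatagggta
HSP90AA1, chr14:102087093-102087144, minus strand, bases -100 to -49: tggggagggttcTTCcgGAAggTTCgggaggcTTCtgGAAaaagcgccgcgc
HSP90AB1, chr6:44247766-44247855, plus strand, bases -177 to -88: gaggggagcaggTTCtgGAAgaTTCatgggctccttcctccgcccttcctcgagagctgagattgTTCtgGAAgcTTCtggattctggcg
HSPD1, chr2:197500056-197500090, minus strand, bases -250 to -216: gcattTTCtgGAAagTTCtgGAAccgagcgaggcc
DNAJA1, chr9:33025264-33025300, plus strand, bases -9 to 27: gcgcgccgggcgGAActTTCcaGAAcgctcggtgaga
DNAJB6, chr7:157336861-157336897, plus strand, bases -143 to -107: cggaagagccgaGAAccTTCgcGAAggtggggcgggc

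A shorter element of 2 facing units, GAANNTTC or TTCNNGAA, which every complete element also contains, was found in 21 of the 44 genes (47.7%) and in 4417 of all 27305 (16.2%). Among the genes with this shorter form alone were HSPA1A, HSPA1B, DNAJB1 and HSPB8. They are shown because, with HSPA6, they varied together among the sphere-differentiated libraries, a choice made after the values were seen.

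HSPA1A, chr6:31815425-31815456, plus strand, bases -118 to -87: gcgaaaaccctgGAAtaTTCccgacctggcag
HSPA1B, chr6:31827621-31827652, plus strand, bases -117 to -86: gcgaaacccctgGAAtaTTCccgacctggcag
DNAJB1, chr19:14518425-14518486, minus strand, bases -89 to -28: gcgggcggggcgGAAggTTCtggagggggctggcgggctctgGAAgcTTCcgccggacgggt
HSPB8, chr12:119178831-119178954, plus strand, bases -100 to 23: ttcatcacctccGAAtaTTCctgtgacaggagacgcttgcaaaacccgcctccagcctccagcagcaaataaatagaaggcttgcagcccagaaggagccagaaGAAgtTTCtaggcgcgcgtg

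More of the chaperone genes were lower than higher in floating spheres. Of 53 tested entries, 16 were lower and 6 were higher at an adjusted p under 0.05 in limma, which was fitted on log2(FPKM + 0.5) over 15719 genes. The lower share was 30.2% of the entries against a background of 17.8% of all genes tested, and the higher share 11.3% against 15.8%. In either direction 41.5% of the entries were called against 33.6% of all genes. The median log2 fold change, floating spheres minus sphere-differentiated, was -0.36 over the entries and 0.00 over all genes. The study names a threshold of p below 0.05 with a log2 change larger than 0.5 either way, without saying whether the p was adjusted. With that threshold applied to the unadjusted p, 16 entries were lower against 19.9% of all genes and 6 were higher against 19.5%. All FS values lay below all SDC values for 18 entries, against 27.2% of all genes, and above them for 6, against 24.3%. In bulk RNA, fewer cells that express a gene and less of its RNA per cell cannot be told apart.

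The counts depended on the sphere-differentiated libraries. Without SDC3 there were 1 higher and 7 lower entries, without SDC2 3 and 11, and without SDC1 4 and 11. The counts over all genes also dropped, to 1318 higher and 1448 lower without SDC3. With FS1 left out, 22 entries were lower and 4 were higher. With both libraries numbered 2 left out, a choice made after the data were seen, 0 entries were higher and 12 were lower. Without the filter on low values, HSF1, HSPA6, HSPA1B, HSPH1, DNAJB1, DNAJB5, HSPB11 and STUB1 lost their calls, at adjusted p between 0.0514 and 0.104, and without the intensity trend HSF1, HSPA1B, HSPH1 and STUB1 did, at 0.0523 to 0.0607. The 6 lower genes that were called under each of the 19 alternative fits were UBQLN1, DNAJA2, DNAJB6, HSF2, HSPA4 and BAG5, and 0 of the 6 higher genes were.

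**Figure D1:**
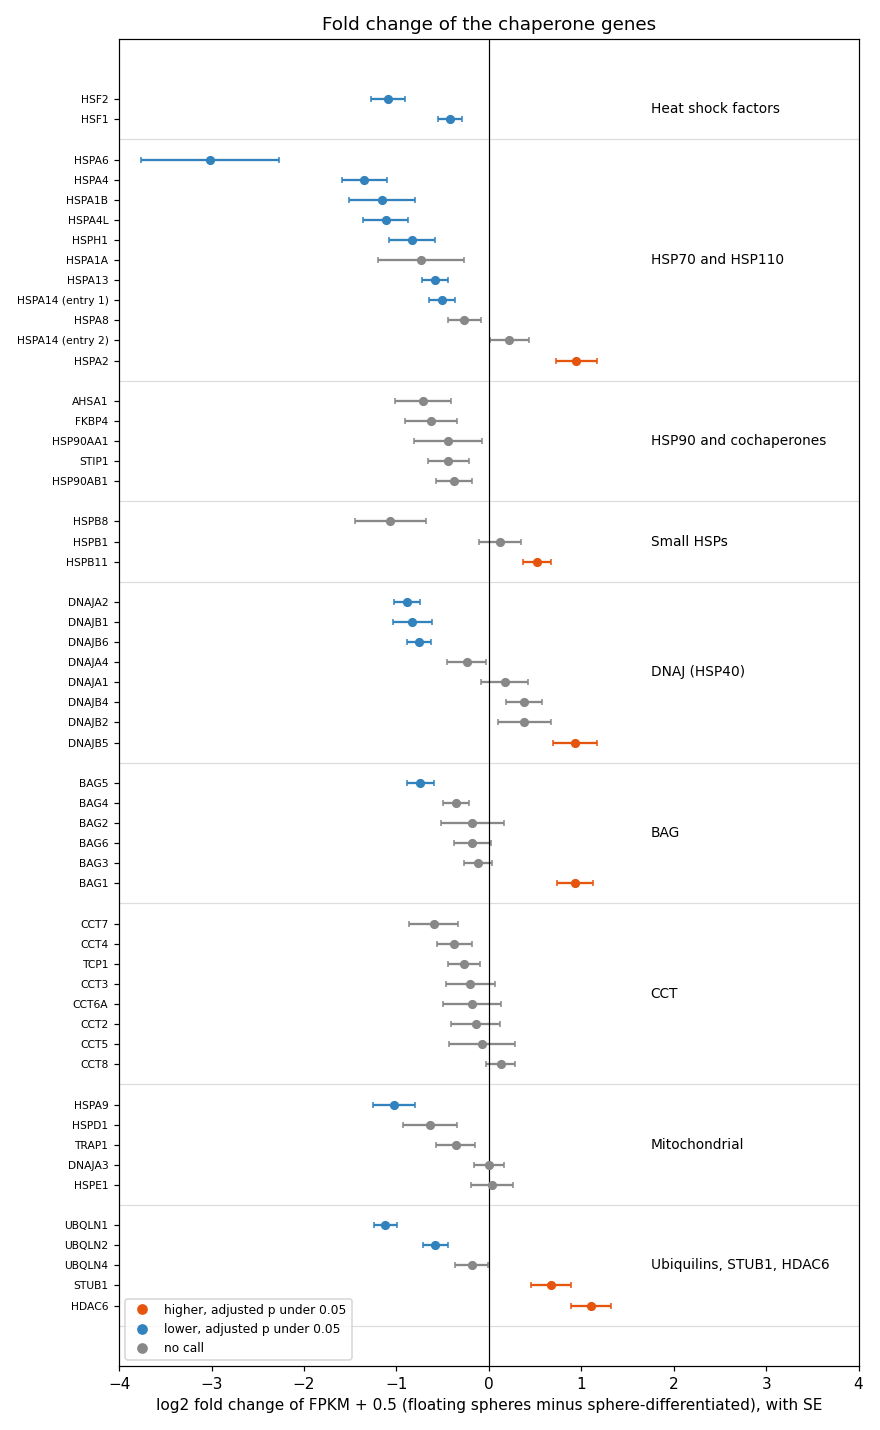
Log2 fold change of FPKM + 0.5, floating spheres minus sphere-differentiated, with its standard error from limma, for the 53 tested entries grouped by role, with 3 libraries per state. Orange points were higher (6) and blue points lower (16) at an adjusted p under 0.05, and grey points (31) had no call. HSPA6 has the lowest value (-3.02) and HDAC6 the highest (1.10), and all points of the HSP90 and CCT groups are grey.

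The summed level of the entries spread more among spheres than among sphere-differentiated libraries. The 54 entries together had 3317, 3265 and 3399 FPKM in SDC1 to SDC3 and 3305, 2003 and 2508 FPKM in FS1 to FS3. They held 1.28% to 1.37% of all FPKM in sphere-differentiated cells, and 1.2%, 0.756% and 0.978% in FS1, FS2 and FS3. FS1 thus lay within the range of the sphere-differentiated libraries in summed level, and FS2 and FS3 lay below it. HSP90AA1 and HSP90AB1 alone supplied 20.4% to 24.6% of the sum in each library.

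**Figure D2:**
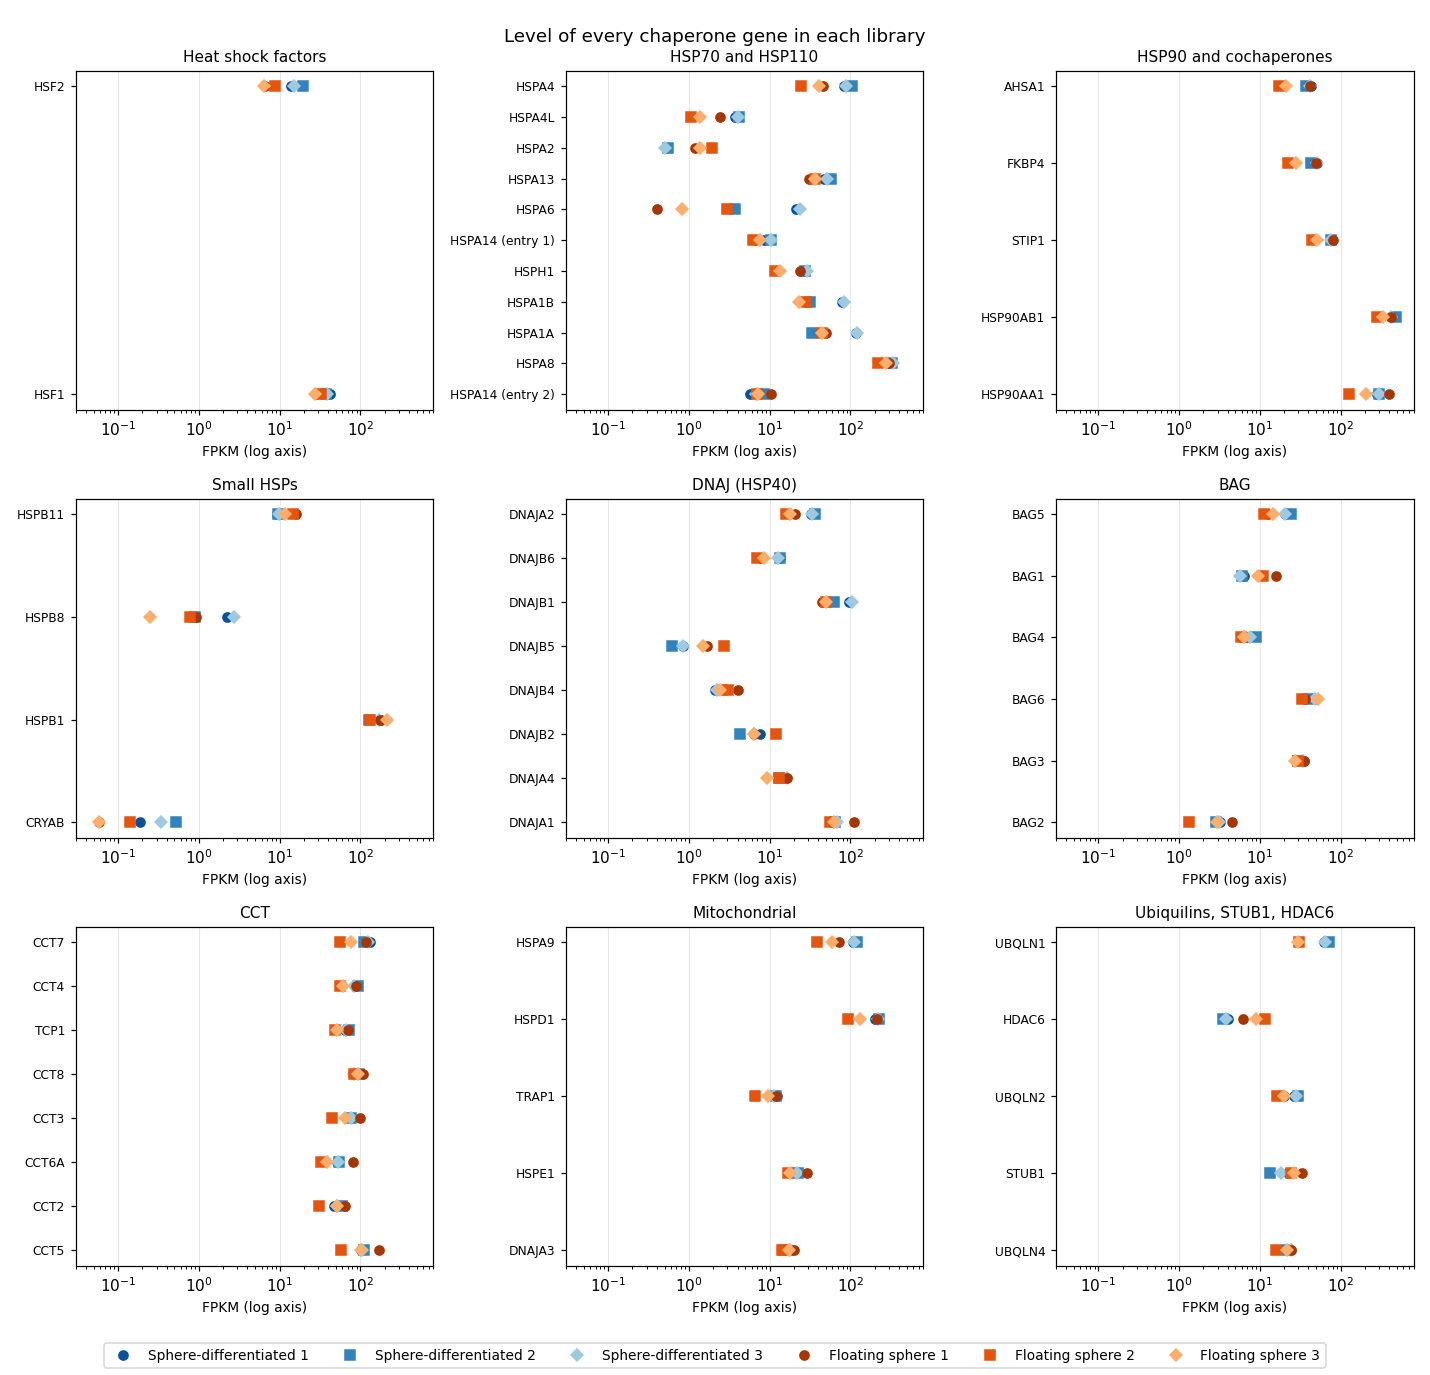
FPKM of all 54 entries on a logarithmic axis, with 1 panel per group and 1 symbol per library (blue, sphere-differentiated; orange, floating sphere). HSP90AB1 and HSPA8 are near the top at 221 to 479 FPKM, CRYAB is lowest at 0.0582 to 0.529 FPKM, and the blue and orange symbols separate fully for UBQLN1, DNAJB6 and HDAC6.

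Both heat shock factors were lower in floating spheres. HSF2, a factor that binds the same elements as HSF1, had 13.8, 19.7 and 15.2 FPKM in SDC1 to SDC3 and 6.65, 8.87 and 6.45 FPKM in FS1 to FS3, without overlap. Its log2 fold change was -1.09 (SE 0.19, limma adjusted p = 0.00546). HSF1, the main activator of the heat shock response, had 42.6, 37.8 and 38.5 FPKM in SDC1 to SDC3 and 28.4, 32.3 and 27.9 FPKM in FS1 to FS3. The states did not overlap either, with a smaller log2 fold change of -0.42 (SE 0.13, limma adjusted p = 0.0429). The call of HSF1 was lost when any library except FS2 was left out, with adjusted p between 0.0657 without FS1 and 0.145 without SDC1.

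In the HSP70 and HSP110 group 7 of 11 entries were lower, 1 was higher and 3 had no call, and the median of the group was -0.74 on the log2 scale. The lower count was 1 without SDC3 and 4 without any other single library, and it was also 4 with the GC and length correction. The HSP110 proteins, large relatives of HSP70 that exchange its nucleotide, were lower for all 3 genes. HSPA4 had 83.1, 106 and 87.8 FPKM in SDC1 to SDC3 and 45.4, 24.6 and 40.6 FPKM in FS1 to FS3. Each sphere library lay below every sphere-differentiated one, by a log2 fold change of -1.35 (SE 0.24, limma adjusted p = 0.00632). HSPA4L had 3.68, 4.13 and 4.00 FPKM in SDC1 to SDC3 and 2.46, 1.05 and 1.36 FPKM in FS1 to FS3, a log2 fold change of -1.12 (SE 0.24, limma adjusted p = 0.0127). Again there was no overlap, although the call was lost without SDC2 (adjusted p = 0.0555) or SDC3 (0.0516). HSPH1 had 27.0, 27.3 and 29.2 FPKM in SDC1 to SDC3 and 23.6, 11.6 and 13.3 FPKM in FS1 to FS3, with a log2 fold change of -0.83 (SE 0.25, limma adjusted p = 0.0396). FS1 was the nearest to the sphere-differentiated cells for all 3 genes. HSPH1 lost its call without any library except FS1, at adjusted p of 0.0875 to 0.117.

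HSPA6, a strictly stress-inducible HSP70 of the human genome (hg38 chr1:161524540-161526910), had the largest fitted change of the 53 entries. It had 21.3, 3.71 and 23.7 FPKM in SDC1 to SDC3 and 0.403, 3.00 and 0.819 FPKM in FS1 to FS3. These values rest on 798, 126 and 924 fragments in SDC1 to SDC3 and on 16, 116 and 33 fragments in FS1 to FS3. SDC1 and SDC3 were high and the other libraries low, so that SDC2 lay just above FS2. The mean was 16.2 ± 10.9 FPKM in sphere-differentiated cells and 1.41 ± 1.39 FPKM in floating spheres (SD, n = 3 each), and the log2 fold change was -3.02 (SE 0.75, limma adjusted p = 0.0196). It missed the threshold without SDC1 (log2 fold change -2.65, adjusted p = 0.0651), SDC3 (-2.57, 0.066), FS1 (-2.60, 0.0532) or FS3 (-2.87, 0.0591).

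HSPA1A and HSPA1B, the major inducible HSP70 genes, lie next to each other on hg38 (chr6:31815464-31817946 and chr6:31827735-31830255) and are near-identical copies, so the split of fragments between them is uncertain. HSPA1A had 116, 33.1 and 121 FPKM in SDC1 to SDC3 and 50.2, 44.8 and 44.4 FPKM in FS1 to FS3. SDC2 lay below all 3 sphere libraries, so the states overlapped, and the log2 fold change of -0.74 (SE 0.46) did not pass the test (limma adjusted p = 0.255). Without SDC2 it was -1.35, with an adjusted p of 0.00878. HSPA1B had 78.6, 31.8 and 83.7 FPKM in SDC1 to SDC3 and 28.2, 28.3 and 23.0 FPKM in FS1 to FS3, a log2 fold change of -1.16 (SE 0.35, limma adjusted p = 0.041). SDC2 was again the low library of its state, here still above the spheres. The call was lost without any library other than SDC2, at adjusted p of 0.0703 to 0.131, and 36.5% of the HSPA1B exons are shared with an annotated overlapping locus, AL671762.1. Adding both genes together depends little on how the counted fragments were split. Together they had 195, 64.9 and 205 FPKM in SDC1 to SDC3 and 78.4, 73.1 and 67.4 FPKM in FS1 to FS3. How fragments that match both copies were counted is not given, and the sum leaves out any that were dropped.

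HSPA8, the constitutive HSC70, was the most abundant gene of the group and did not pass the test. It had 295, 329 and 332 FPKM in SDC1 to SDC3 and 303, 221 and 277 FPKM in FS1 to FS3, with a log2 fold change of -0.26 (SE 0.18, limma adjusted p = 0.276). The ratio of HSPA1A plus HSPA1B to HSPA8 was 0.661, 0.197 and 0.616 in SDC1 to SDC3 and 0.259, 0.331 and 0.243 in FS1 to FS3. The ratio in SDC2 was thus below that of every sphere library. HSPA8 supplied 42.9% to 53.8% of the HSP70 and HSP110 sum in sphere-differentiated cells and 57.2% to 61.2% in floating spheres.

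The other HSP70 genes went in different directions. HSPA13, a microsome-associated HSP70 relative, had 47.2, 57.5 and 51.9 FPKM in SDC1 to SDC3 and 30.8, 36.9 and 36.2 FPKM in FS1 to FS3, a log2 fold change of -0.59 (SE 0.14, limma adjusted p = 0.0189). The states did not overlap, and the call was lost without SDC2 (adjusted p = 0.0701) or SDC3 (0.0832). HSPA2, a paralog known best from male germ cells, was the only higher gene of the group, with 0.514, 0.555 and 0.505 FPKM in SDC1 to SDC3 and 1.19, 1.92 and 1.38 FPKM in FS1 to FS3. Its log2 fold change was 0.94 (SE 0.22, limma adjusted p = 0.0157), at 46 to 48 fragments per sphere-differentiated library, and the call was lost without SDC3 (adjusted p = 0.0607). HSPA14 is the name of a ribosome-associated HSP70 and of 2 entries, a full-length gene and a locus called short here for its genomic span. The exon length of the short locus is 4924 bases, against 2644 for the full-length gene. Only 9.34% of the exon length of the short locus overlaps CDNF or the full-length gene, yet it is among the lower entries counted for the group. The short locus had 8.63, 10.3 and 10.5 FPKM in SDC1 to SDC3 and 6.56, 6.15 and 7.55 FPKM in FS1 to FS3 (log2 fold change -0.51, SE 0.14, limma adjusted p = 0.0309). That call was lost without SDC2, SDC3, FS1 or FS2, at adjusted p of 0.056 to 0.137. The GC and length correction ended the calls of HSPA13 (log2 fold change -0.36, limma adjusted p = 0.0662), of the short HSPA14 locus (-0.33, 0.0704) and of HSPH1 (-0.55, 0.136). The full-length HSPA14 gene had 5.64 to 8.54 FPKM in sphere-differentiated cells and 7.05 to 10.4 FPKM in spheres, with no call (log2 fold change 0.22, limma adjusted p = 0.438).

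**Figure D3:**
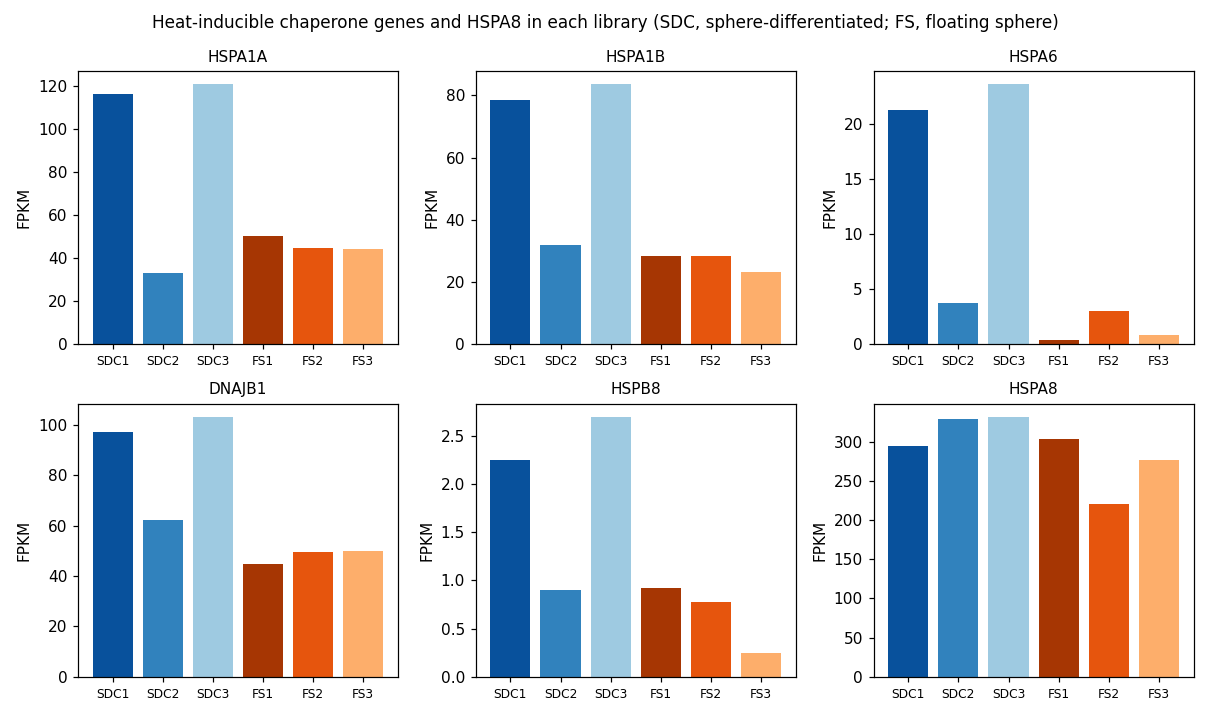
FPKM in each of the 6 libraries (bars from 0) for HSPA1A, HSPA1B, HSPA6, DNAJB1 and HSPB8 and, for comparison, HSPA8. SDC1 and SDC3 are the tallest bars for the first 5 genes (HSPA1A 116 and 121 FPKM) and SDC2 is at most 62.1 FPKM in any of them, while HSPA8 is between 221 and 332 FPKM throughout.

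SDC2 was at least 1.5 times below both SDC1 and SDC3 for 5 of the 53 entries (HSPA1A, HSPA1B, HSPA6, DNAJB1 and HSPB8), or 9.43%, against 7.14% of all genes tested. At a factor of 2 there were 4 of 53 (7.55%), against 3.96% of all genes. These shares were near the background, so the low values describe single genes and not the 53 entries as a whole. The mean of SDC1 and SDC3 was 6.06 times the SDC2 value for HSPA6, 3.59 times for HSPA1A, 2.74 times for HSPB8, 2.55 times for HSPA1B and 1.62 times for DNAJB1. HSPB8 had 2.25, 0.902 and 2.70 FPKM in SDC1 to SDC3 and 0.918, 0.772 and 0.247 FPKM in FS1 to FS3, on 12 to 127 fragments. Its log2 fold change of -1.07 (SE 0.38) missed the threshold (limma adjusted p = 0.0674) and passed it without SDC2 (-1.43, adjusted p = 0.0365), in limma voom (-1.67, 0.0463) and under 3 other settings. Across all 53 entries, SDC2 did not stand apart, since the median log2 difference of SDC1 from SDC2 was -0.04 and that of SDC3 from SDC2 was 0.01. SDC2 had the smallest fragment total (14725462) and the highest mitochondrial share of FPKM of its state (10.6% against 7.76% and 8.63%), and the part of either in these differences was not tested.

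Among the 8 DNAJ genes, which encode the HSP40 partners of HSP70, 3 were lower and 1 higher, with a median log2 fold change of -0.04. DNAJA2, an HSP40 of the cytosol, had 32.8, 36.6 and 33.3 FPKM in SDC1 to SDC3 and 20.9, 16.1 and 18.0 FPKM in FS1 to FS3 (log2 fold change -0.89, SE 0.14, limma adjusted p = 0.00424). DNAJB6, which keeps polyglutamine proteins from aggregating, had 13.3, 13.6 and 12.8 FPKM in SDC1 to SDC3 and 7.52, 6.90 and 8.50 FPKM in FS1 to FS3 (log2 fold change -0.76, SE 0.13, limma adjusted p = 0.00536). Both were tight within each state and did not overlap. DNAJB1, the main heat-inducible HSP40, had 97.4, 62.1 and 103 FPKM in SDC1 to SDC3 and 44.8, 49.4 and 49.8 FPKM in FS1 to FS3 (log2 fold change -0.83, SE 0.21, limma adjusted p = 0.0212). SDC2 was its lowest sphere-differentiated library, and the call was lost without SDC1 (adjusted p = 0.076) or SDC3 (0.0899). DNAJB5, a low-abundance relative of DNAJB1, was higher in spheres, with 0.847, 0.615 and 0.846 FPKM in SDC1 to SDC3 and 1.69, 2.71 and 1.5 FPKM in FS1 to FS3 (log2 fold change 0.93, SE 0.24, limma adjusted p = 0.0213). Without SDC1, SDC2 or SDC3 its adjusted p was 0.0534 to 0.0761. DNAJA1, DNAJA4, DNAJB2 and DNAJB4 had no call, with log2 fold changes between -0.24 and 0.38.

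Of the 6 BAG genes, 1 was lower and 1 was higher. BAG5, which binds several HSP70 molecules and slows refolding, had 20.4, 24.6 and 20.3 FPKM in SDC1 to SDC3 and 12.6, 11.4 and 14.4 FPKM in FS1 to FS3 (log2 fold change -0.74, SE 0.15, limma adjusted p = 0.00902). BAG1, which couples HSC70 to the proteasome, had 6.45, 6.06 and 5.61 FPKM in SDC1 to SDC3 and 16.0, 11.1 and 9.59 FPKM in FS1 to FS3 (log2 fold change 0.93, SE 0.20, limma adjusted p = 0.011). Neither gene overlapped between states, and BAG1 just missed the threshold without SDC3 (adjusted p = 0.0518). BAG3, which with HSPB8 sends clients to the aggresome and to autophagy, had 35.3, 29.5 and 34.6 FPKM in SDC1 to SDC3 and 35.1, 29.6 and 27.0 FPKM in FS1 to FS3 (log2 fold change -0.12, SE 0.15, limma adjusted p = 0.575). Its states overlapped over most of their range. BAG2, BAG4 and BAG6 also had no call, with log2 fold changes of -0.18, -0.36 and -0.18, and 44.2% of the BAG2 exons overlap other genes.

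The 4 genes named as small heat shock proteins showed little common movement, with 1 of 3 tested genes called. HSPB1 (HSP27) made up 89.6% to 94.8% of their sum in every library. It had 181, 127 and 169.8 FPKM in SDC1 to SDC3 and 176, 133 and 215 FPKM in FS1 to FS3, a log2 fold change of 0.12 (SE 0.23, limma adjusted p = 0.706), with overlap between states. HSPB11, which despite its name is a component of intraflagellar transport, had 9.21, 9.54 and 9.97 FPKM in SDC1 to SDC3 and 15.9, 14.6 and 11.5 FPKM in FS1 to FS3 (log2 fold change 0.52, SE 0.15, limma adjusted p = 0.0352). Its call was lost without any library except FS3, at adjusted p of 0.0638 to 0.108. CRYAB was listed at 0.187 to 0.529 FPKM in sphere-differentiated cells and at 0.0582 to 0.141 FPKM in spheres, on 3 to 23 fragments, and was not tested.

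No gene of the HSP90 group or of the CCT complex was called in either direction (0 of 5 and 0 of 8). At an unadjusted p under 0.05 the counts were also 0 in both groups, as were the calls of limma voom on recovered fragments, although after quantile normalization HSP90AB1 was lower (log2 fold change -0.61, adjusted p = 0.0499). The smallest unadjusted p was 0.0508 for AHSA1 and 0.0562 for CCT7. In both groups the sphere libraries differed more from each other than the sphere-differentiated ones. HSP90AA1, the inducible cytosolic HSP90, had 287, 299.9 and 302 FPKM in SDC1 to SDC3 and 393, 129 and 204 FPKM in FS1 to FS3 (log2 fold change -0.44, SE 0.37, limma adjusted p = 0.383). FS1 was above and FS2 and FS3 were below every sphere-differentiated library. HSP90AB1, the constitutive form, had 424, 479 and 420.3 FPKM in SDC1 to SDC3 and 419, 279 and 332 FPKM in FS1 to FS3 (log2 fold change -0.38, SE 0.20, limma adjusted p = 0.17). The ratio of HSP90AA1 to HSP90AB1 was 0.675, 0.626 and 0.718 in SDC1 to SDC3 and 0.938, 0.461 and 0.616 in FS1 to FS3.

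The order FS1 over FS3 over FS2 held for all 5 genes of the HSP90 group, all 8 CCT subunits and 29 of the 53 entries (54.7%), against 23.2% of all genes tested. FS1 was at least 2 times FS2 for 12 of 53 entries (22.6%) against 7.41% of all genes. The median log2 difference of FS1 from FS2 was 1.14 in the HSP90 group, 1.07 in the CCT complex, 0.44 over the 53 entries and 0.02 over all genes. AHSA1, which stimulates the HSP90 ATPase, had 43.1, 37.5 and 41.8 FPKM in SDC1 to SDC3 and 41.7, 17.1 and 21.1 FPKM in FS1 to FS3. STIP1, which bridges HSP70 and HSP90, had 79.3, 75.1 and 76.4 FPKM in SDC1 to SDC3 and 80.2, 44.9 and 50.4 FPKM in FS1 to FS3. FKBP4, an immunophilin of steroid receptor complexes, had 51.7, 43.4 and 51.2 FPKM in SDC1 to SDC3 and 49.9, 22.4 and 27.7 FPKM in FS1 to FS3. In each of these cochaperones, FS1 was within or just above the sphere-differentiated range and FS2 and FS3 were below it.

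Without FS1, 10 genes that had no call became lower. They were all 5 genes of the HSP90 group, CCT4, CCT6A, CCT7, TCP1 and HSPD1. Their log2 fold changes were then between -1.08 (AHSA1, adjusted p = 0.00473) and -0.43 (TCP1, adjusted p = 0.0409), with HSP90AA1 at -0.87 (adjusted p = 0.0255) and HSP90AB1 at -0.53 (adjusted p = 0.0453). FS1 also had the highest mitochondrial share of FPKM of the 6 libraries (11.9% against 7.76% to 10.6%) and the largest summed level of ovarian epithelial markers among spheres (431 FPKM against 181 in FS2 and 198 in FS3). The part of either in the order of the spheres was not tested.

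The CCT subunits, which assemble in equal numbers into a double ring, were within a factor of 2.01 to 2.79 of each other in every library. Their sum was 642, 676 and 642 FPKM in SDC1 to SDC3 and 805, 413 and 542 FPKM in FS1 to FS3, so FS1 was above and FS2 and FS3 below the sphere-differentiated range. CCT5 varied most among spheres, with 101, 111 and 104 FPKM in SDC1 to SDC3 and 171, 57.1 and 102 FPKM in FS1 to FS3. Its mean was higher in spheres (110.1 against 105 FPKM) while its log2 fold change was -0.07 (SE 0.36, limma adjusted p = 0.894), and 30.1% of its exons overlap another gene. CCT8 varied least, with 81.2, 95.9 and 83.7 FPKM in SDC1 to SDC3 and 109, 83.6 and 93.1 FPKM in FS1 to FS3. The share of CCT7 in the CCT sum was 20.5%, 16.4% and 19.3% in SDC1 to SDC3 and 14.8%, 13.7% and 14.2% in FS1 to FS3. This was a description of 1 of 8 shares, with no test, and it did not overlap between states. CCT7 had a log2 fold change of -0.60 (SE 0.26, limma adjusted p = 0.119), and the remaining 5 subunits had log2 fold changes between -0.38 (CCT4) and -0.14 (CCT2).

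**Figure D4:**
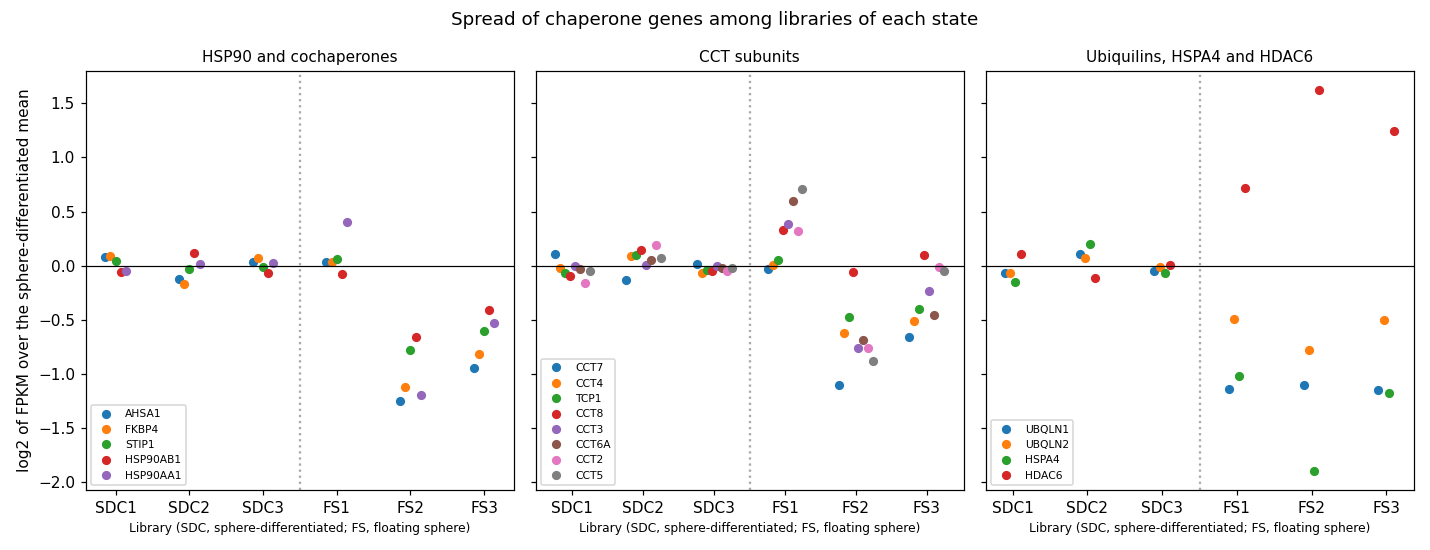
Log2 of FPKM over the mean of the 3 sphere-differentiated libraries, for each library, in the HSP90 group (left), the CCT subunits (middle) and 4 genes called in limma (right). The genes of the first 2 panels lie close to 0 in SDC1 to SDC3 and spread in FS1 to FS3, with FS1 highest and FS2 lowest for each, while UBQLN1 is at nearly the same level in all 3 spheres (29.6 to 30.6 FPKM) and HDAC6 is above 0 in each.

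In the mitochondrial group, 1 of 5 genes was called. HSPA9 (mortalin), the HSP70 of the matrix that also pulls precursors through the import channel, had 109, 121 and 111 FPKM in SDC1 to SDC3 and 72.3, 39.1 and 59.7 FPKM in FS1 to FS3. Every sphere library was below every sphere-differentiated one, with a log2 fold change of -1.03 (SE 0.23, limma adjusted p = 0.0133), and without SDC2 the adjusted p was 0.0574. HSPD1 (HSP60), the matrix chaperonin, had 203, 229 and 217 FPKM in SDC1 to SDC3 and 215, 93.1 and 133 FPKM in FS1 to FS3, with no call (log2 fold change -0.64, SE 0.29, limma adjusted p = 0.126). Without FS1 it was called at -0.95 (adjusted p = 0.0127). HSPE1 (HSP10), its cochaperonin, is transcribed from the same region in the opposite direction and had 17.2, 22.2 and 22.0 FPKM in SDC1 to SDC3 and 29.2, 17.0 and 18.1 FPKM in FS1 to FS3 (log2 fold change 0.03, SE 0.23, limma adjusted p = 0.931). The ratio of HSPD1 to HSPE1 was 11.8, 10.3 and 9.86 in SDC1 to SDC3 and 7.37, 5.49 and 7.36 in FS1 to FS3. That ratio is a description without a test, and HSPE1 shares 23.9% of its exons with other genes and has 26 annotated pseudogenes, whose fragments reached 13.9% of its own in a library. TRAP1, the mitochondrial HSP90, and DNAJA3, the matrix DNAJ protein, had no call (log2 fold changes -0.36 and 0.00).

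Of the 5 protein disposal genes, UBQLN1 and UBQLN2 were lower and HDAC6 and STUB1 higher in floating spheres. UBQLN1, a shuttle that carries ubiquitylated proteins to the proteasome (hg38 chr9:83659963-83708203), had 62.9, 71.1 and 63.4 FPKM in SDC1 to SDC3 and 29.8, 30.6 and 29.6 FPKM in FS1 to FS3. The states were far apart and the spheres almost equal, with a log2 fold change of -1.12 (SE 0.12) and the smallest adjusted p of the 53 entries (limma adjusted p = 0.00138). UBQLN2, its relative mutated in a form of motor neuron disease, had 26.9, 29.6 and 27.9 FPKM in SDC1 to SDC3 and 19.9, 16.3 and 19.8 FPKM in FS1 to FS3 (log2 fold change -0.58, SE 0.14, limma adjusted p = 0.0156). Its call was lost without SDC2 (adjusted p = 0.0596) or SDC3 (0.0723). UBQLN4 had 21.5 to 24.1 FPKM in sphere-differentiated cells and 15.9 to 24.1 FPKM in spheres, with no call (log2 fold change -0.19, limma adjusted p = 0.445).

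HDAC6, the cytoplasmic deacetylase that links ubiquitylated aggregates to dynein (hg38 chrX:48801377-48824982), was higher in floating spheres. It had 4.09, 3.51 and 3.81 FPKM in SDC1 to SDC3 and 6.27, 11.7 and 9.0 FPKM in FS1 to FS3, without overlap and with FS2 highest. The means were 3.80 ± 0.287 and 9.0 ± 2.74 FPKM (SD, n = 3 each), and the log2 fold change was 1.10 (SE 0.22, limma adjusted p = 0.00897). With both libraries numbered 2 left out it was 0.85, at an adjusted p of 0.0533. STUB1 (CHIP), a ubiquitin ligase that takes clients from HSP70 and HSP90, had 22.1, 13.3 and 18.2 FPKM in SDC1 to SDC3 and 33.7, 24.6 and 26.8 FPKM in FS1 to FS3 (log2 fold change 0.67, SE 0.21, limma adjusted p = 0.0461). The states did not overlap, but 42.4% of the STUB1 exons overlap JMJD8, and the call was lost without SDC2, SDC3, FS1 or FS3 (adjusted p of 0.0836 to 0.131). It was also lost with the GC and length correction (log2 fold change 0.42, adjusted p = 0.0997) and in TPM (0.61, 0.0607).

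The calls were also read against the heat shock elements shown above. Of the 7 genes with a complete element, 2 were lower (HSPA6 and DNAJB6) and 5 had no call, with a median log2 fold change of -0.44. Of the 14 with the shorter element alone, 4 were lower (DNAJB1, HSPA1B, HSPA4L and HSPA9) and 10 had no call, with a median of -0.41. None of these 21 genes was higher in limma, at an unadjusted p under 0.05 or in limma voom (0 in each). With the GC and length correction DNAJB4, which has the shorter element, was higher (log2 fold change 0.58, limma adjusted p = 0.0272, against 0.38 and 0.172 without it). Of the 23 genes without either, 4 were higher, 8 were lower and 11 had no call, with a median of -0.20. Over all genes tested, 15.8% were higher and 17.8% were lower. The share of lower genes was no smaller among the 23 without an element than among the 21 with one. A match of letters does not show that a factor bound there. Only exact matches within the 300 bases searched count, so a gene without a match can have an element elsewhere. The elements shown for HSPD1 lie within the annotated span of HSPE1, which counts here as without either.

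Partner genes outside the 53 were taken from lists of the same pathways. Of 105 tested partner genes, 11 were higher and 22 were lower, against backgrounds of 15.8% and 17.8% of all genes. The same backgrounds stand beside the counts of each list below, and the shares of small lists rest on few genes. Without SDC1, SDC2 or SDC3 the higher count was 7, 6 and 4 and the lower count 10, 5 and 7. Of the 33 called partners, 8 were called whichever library was left out, and among those named here these were PFDN5, BTF3, SIL1, DNAJC10, SIRT1, HSF4, TAX1BP1 and RANBP2.

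Among other HSP90 cochaperones, 1 of 12 was higher and 2 were lower. CHORDC1 (log2 fold change -0.85) and PTGES3, also known as p23 (-0.45), were lower, and ST13, which binds HSP70, was higher (0.55), and each lost its call in at least 1 fit without a library. Of 14 prefoldin and chaperonin cofactor entries, 3 were higher and 2 lower. Prefoldin hands actin and tubulin chains to CCT. Of its subunits, PFDN1, PFDN2, PFDN6 and VBP1 had no call (limma adjusted p of 0.136 to 0.887). PFDN5 had 22.1, 19.3 and 21.1 FPKM in SDC1 to SDC3 and 46.3, 57.6 and 36.2 FPKM in FS1 to FS3 (log2 fold change 1.12, SE 0.19, limma adjusted p = 0.00484), while PFDN4 was lower (-0.77) and the tubulin cofactor TBCD higher (0.72). The calls of PFDN4 and TBCD were lost in leave-one-out fits.

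Of 31 other DNAJ genes, 2 were higher and 7 lower. DNAJC10 and DNAJC3, both of the endoplasmic reticulum, were lower by log2 fold changes of -0.83 and -0.71, and DNAJC16 by -0.79. Of 10 exchange factors and ribosome-bound chaperones, 2 were higher and 3 lower. BTF3, the beta subunit of the nascent polypeptide complex, had 97.9, 87.9 and 84.7 FPKM in SDC1 to SDC3 and 172, 178 and 162 FPKM in FS1 to FS3 (log2 fold change 0.92, SE 0.14, limma adjusted p = 0.00345). SIL1, the exchange factor of the endoplasmic reticulum, was higher (0.87) and GRPEL2, that of mitochondria, lower (-0.73). Of 10 other mitochondrial quality genes, the proteases SPG7 (0.63) and HTRA2 (0.63) were higher and YME1L1 (-0.59) was lower. DNAJC3, DNAJC16, GRPEL2, SPG7, HTRA2 and YME1L1 each lost the call without SDC2 or SDC3.

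A list of 27 tested heat-inducible genes, which shares members with the 53, had 1 higher and 8 lower genes, against 15.8% and 17.8% of all genes. The median log2 fold change of this list was -0.44. Its lower count was 2 without SDC1, 5 without SDC2, 1 without SDC3, 12 without FS1, 5 without FS2, 4 without FS3 and 2 without the filter on low values. Of 5 other genes around HSF1, SIRT1, a deacetylase that prolongs HSF1 binding, was lower, with 20.4, 24.3 and 20.2 FPKM in SDC1 to SDC3 and 12.7, 10.2 and 10.6 FPKM in FS1 to FS3 (log2 fold change -0.93, SE 0.15, limma adjusted p = 0.00411). HSF4, a lens heat shock factor, was higher (log2 fold change 2.23, SE 0.47, limma adjusted p = 0.0106), with 2.97 to 6.84 FPKM in sphere-differentiated cells and 15.7, 51.6 and 19.1 FPKM in FS1 to FS3. FS2 was far above the other spheres, and 31.4% of its exons overlap another locus.

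Of 21 other aggresome and selective autophagy genes, 0 were higher and 6 were lower in limma, against 15.8% and 17.8% of all genes. At an unadjusted p under 0.05 the counts were 0 and 8, and in limma voom 0 and 6. The lower count was 3 without SDC1, 3 without SDC2, 2 without SDC3, 6 without FS1, 7 without FS2 and 6 without FS3. It was 4 without the filter on low values and 1 with both libraries numbered 2 left out. All FS values lay above all SDC values for 2 of the 21, against 24.3% of all genes. They lay below for 8, against 27.2% of all genes. SQSTM1, the receptor that gathers ubiquitylated proteins, had 86.5, 68.3 and 74.4 FPKM in SDC1 to SDC3 and 52.3, 39.4 and 31.9 FPKM in FS1 to FS3. Its log2 fold change was -0.91 (SE 0.20, limma adjusted p = 0.0139), it did not overlap between states, and it shares 22.0% of its exons with neighbouring genes. Its adjusted p was 0.0539 without SDC1 and 0.0532 without SDC3. TAX1BP1, another autophagy receptor, had 25.9, 33.8 and 27.6 FPKM in SDC1 to SDC3 and 15.5, 11.1 and 11.2 FPKM in FS1 to FS3 (log2 fold change -1.18, SE 0.18, limma adjusted p = 0.0037). RANBP2, a SUMO ligase of the nuclear pore, was lower by a log2 fold change of -0.94. The 6 other small heat shock protein genes listed were below the filter.

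The cells were checked against markers of the ovarian epithelium and of other cell types. KRT7, KRT8 and KRT18 were abundant, and MUC16 was near 0 (at most 0.0499 FPKM). Of 7 tested epithelial markers, 4 were lower in spheres and 0 were higher in limma, at an unadjusted p under 0.05 and in limma voom. All FS values lay above all SDC values for 1 of the 7, without a call. The sum over 8 genes was 737 to 817 FPKM in sphere-differentiated cells and 181 to 431 FPKM in spheres. The immune marker PTPRC and the endothelial markers CDH5 and KDR were listed at 0 in all 6 libraries, and the sum of 5 immune markers was at most 0.304 FPKM. Endothelial markers summed to 2.39 to 3.12 FPKM in sphere-differentiated cells and 4.65 to 7.47 FPKM in spheres, nearly all PECAM1, and 5 fibroblast markers to 2.68 to 2.96 and 4.08 to 6.84 FPKM. The 1 endothelial marker tested was called higher in spheres (log2 fold change 0.99), as was 1 of 3 tested fibroblast markers. The part of the lower epithelial markers in the chaperone differences was not tested.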

How the data were processed

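A NEBNext Ultra RNA kit was used for the libraries. The submitters' notes name hg38, featureCounts 1.5.0-p3 and DESeq2 1.20.0. Aligner, annotation release and strand handling: not given in the sources used here, so antisense and overlapping genes cannot be told apart. The deposited values are FPKM. The total implied by the SDC2 values was 14342431, below the 14725462 fragments recovered for it, so SDC2 was not scaled by its own fragment total alone. How the scaling was set is not given. Rescaling each library by its median ratio to the geometric mean of all libraries gave nearly the main fit again. The counts over all genes stayed at 2487 higher and 2792 lower, so this alternative adds no separate check. GENCODE 29 exon lengths returned whole fragments within 0.01 for 100% of 141500 values checked, and told the HSPA14 entries apart.

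The 53 genes and the partner lists were chosen with earlier results of these data known. Genes averaging 0.5 FPKM or more over the 6 libraries entered the test, which was that of limma 3.58.1 (R 4.3.3) applied to log2(FPKM + 0.5), with an intensity trend, state as the only term, two-sided p-values and Benjamini-Hochberg adjustment at 0.05 over all 15719 genes. The test recovered most of the largest planted changes on simulated data, which had 1 modest dispersion for all genes and independent libraries. That setting lacks the wide shared spread of the HSP90 and CCT genes among spheres, so it does not show how the test performs there. The recovery of smaller planted changes, which are nearer in size to most calls here, is not given. Per-library values were given for up to 4 called genes per group with the smallest adjusted p (6 for HSP70 and DNAJ), for HSF1, HSPA1A, HSPA1B, HSPA8, HSP90AA1, HSPB1, DNAJB1, BAG3 and HDAC6, and for up to 3 called partners per list plus SQSTM1. Values of other genes were added after they were seen. Sums, ratios, shares and sequence matches are descriptions without a test. Alternatives changed the pseudocount, filter, scaling, replicate term, moderation, gene types, a GC and length correction or left out each library, and 1 ran limma voom on the recovered fragments in place of FPKM.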

Additional observations from a re-analysis of the deposited data

How the results depend on the processing

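The median log2 fold change of the 53 entries stayed below 0 in each of the 19 alternative fits, between -0.50 and -0.18. Without a filter, 3 entries were higher, and 11 of the partner genes were lower. With a minimum mean of 5 FPKM, 1478 of all genes were higher. Leaving out 1 library gave 1 to 5 higher and 7 to 22 lower entries, 1318 to 2496 higher and 1448 to 2827 lower genes over all genes, and 4 to 10 higher and 5 to 19 lower partner genes. With both libraries numbered 2 left out, 0 entries were higher, as were 1522 of all genes, and 1692 of all genes and 4 partner genes were lower. The cause was not tested. Replicate numbers did not pair the libraries across states (correlations of -0.02, -0.07 and -0.04, and 0 of 6 libraries closest to their own number). With the replicate block, 4 entries were higher and 12 lower, 1994 of all genes were higher and 2094 lower, and 8 partner genes were higher and 12 lower. Some genes without a call changed sign. In TPM, HSPE1 was at -0.0449 and DNAJA3 at -0.0752, after quantile normalization HSPB1 was at -0.0215, and with the GC and length correction HSPB1 was at -0.18, HSPE1 at -0.0228, CCT5 at 0.13, CCT2 at 0.0079 and BAG2 at 0.0907. Over the fits without 1 library, HSPE1 ranged from -0.21 to 0.17, HSPB1 from -0.0396 to 0.30, DNAJA3 from -0.11 to 0.13, DNAJA1 from -0.13 to 0.36, CCT5 from -0.46 to 0.33, CCT3 from -0.49 to 0.0772, CCT6A from -0.57 to 0.0675, CCT2 from -0.38 to 0.16 and BAG2 from -0.52 to 0.22. With both libraries numbered 2 left out, CCT5 was at 0.36, CCT3 at 0.082, CCT6A at 0.0918, CCT2 at 0.25, BAG2 at 0.18 and DNAJB2 at -0.11. The heat shock element of 3 units occurred in 7 genes and that of 2 units in 21. Genes with few fragments, such as HSPB8 (12 to 127 per library) and CRYAB (3 to 23), limit what their values can show.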

Other observations

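HSPA6 and HSPA1A were also the genes for which SDC2 stood farthest below its sister libraries. Among 7260 protein-coding genes that averaged 5 FPKM or more, the lower of SDC1 and SDC3 was 5.74 times the SDC2 value for HSPA6 and 3.52 times for HSPA1A, ranks 1 and 2, and 2.47 times for HSPA1B, rank 6. These ranks were looked up after the values had been seen and carry no test. C6orf48, a gene of the same chromosome, had rank 3, and other genes overlap 29.1% of its exons. It had 95.9, 23.3 and 63.6 FPKM in SDC1 to SDC3 and 17.9, 63.0 and 20.3 FPKM in FS1 to FS3.

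The ratio of HSPA1A to HSPA1B, which rests on an uncertain split of near-identical sequences, was 1.48, 1.04 and 1.44 in SDC1 to SDC3 and 1.78, 1.58 and 1.93 in FS1 to FS3.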
